A study of Homo sapiens with 18 samples.

Results

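The comparison set the mRNAs of light polysomes against those of monosomes in vehicle-treated HEK293 cells, an established human embryonic kidney line. In a sucrose gradient a cytoplasmic lysate separates by ribosome number, so a monosome pool holds mRNAs with a lone ribosome and a light polysome pool those with a few. The cells of every group used here (HEK293, ATCC CRL-1573) had received DMSO vehicle for 12 h, and each of the 3 gradient pools, monosome, light polysome and heavy polysome, was represented by 3 libraries of single-end reads of 75 nt. Genes entered where the row carried a gene symbol and averaged at least 20 normalized counts over the 9 vehicle libraries, which kept 12059 of 13661 rows: 233 had no symbol and 1369 were under the mean. The contrast rests on 6 of the study's 18 libraries; the 3 heavy polysome libraries shared in the estimate of spread, and the 9 libraries of cells given 100 µM minocycline are not analysed here.

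As background, an mRNA moves deeper into the gradient as initiation loads more ribosomes onto its coding sequence, and a short coding sequence has room for few. mRNAs for ribosomal proteins and other parts of the translation machinery begin with a run of pyrimidines at the cap, the 5′ terminal oligopyrimidine or TOP motif, through which mTOR signalling and the protein LARP1 control whether they enter polysomes. Mitochondrially encoded mRNAs are translated by the organelle's own ribosomes, and selenoprotein mRNAs read an in-frame UGA codon as selenocysteine.

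Library depth lay between 13447139 and 24441159 reads in genes. Of 13 marker genes of HEK293 cells, 12 passed the minimum, with summed normalized counts of 13502 to 20562 in the monosome libraries and 22711 to 25673 in the light polysome libraries. Markers of other cells were near 0: 1 of 5 blood cell markers passed, with a mean of 23.1, as did 0 of 4 hepatocyte and 1 of 4 fibroblast markers, with a mean of 23.3. Light polysome replicate 2 stood apart from its group. Across the genes tested, within libraries that share a scaling, its log2 values correlated at r = 0.881 and 0.867 with light replicates 1 and 3, which correlated with each other at 0.985, and at 0.932, 0.916 and 0.948 with the 3 heavy polysome libraries. Whether it holds the pool its label names was not tested, so each light polysome value of replicate 2 is that of the library so labelled. Many of the results that changed without that library are given both ways. The replicate numbers are also the labels' batch numbers, and the series' design text calls the replicates biological.

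Light polysomes and monosomes differed at many genes in both directions. A gene is called where limma's adjusted p (Benjamini-Hochberg over the 12059 genes) lay below 0.05. By this rule 1074 genes, or 8.91%, were higher in light polysomes and 1276, or 10.6%, were higher in monosomes, so 19.5% were called in all. Differences are log2(normalized count + 1) in light polysomes minus monosomes, and ± marks the standard error (SE) of the fit. They ran from -5.38 at MT-CO2 to 3.86 at RGPD8, with a median of 0.04, and the monosome side reached further: 480 of the called genes lay below -2 and 116 above 2. The light and monosome libraries did not overlap at 18.1% of genes with light higher and at 18.3% with monosome higher. Without light polysome replicate 2, 1346 genes (11.2%) were higher in light polysomes and 1405 (11.7%) higher in monosomes. Of those, 932 and 1099 were shared with the full set, and 0 were called in opposite directions. With the replicate block 19.8% of genes were called, 1063 higher in light polysomes and 1325 higher in monosomes. Values are scaled to the typical gene of each library, so a gene is high or low relative to other genes of that pool. Scaling by library totals moved the median gene by 1.19 towards light polysomes and turned the counts into 7245 and 355. Under that scaling 36 large-subunit and 29 small-subunit ribosomal protein genes, 8 other TOP mRNAs and 11 mitochondrially encoded mRNAs were higher in monosomes, and differences towards monosomes smaller than about 1.19 changed sign. In bulk libraries an even shift in every cell and a larger shift in some cells cannot be told apart.

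The called counts rested on the replicates unequally. Leaving out replicate 1 of all 3 fractions left 158 genes higher in light polysomes and 434 higher in monosomes, and leaving out replicate 3 left 255 and 699, whereas 2182 and 2265 were called without replicate 2. Single libraries moved the count higher in light polysomes to 622 without light replicate 1, 697 without light replicate 3, 604 without monosome replicate 1 and 682 without monosome replicate 3. Monosome replicate 1 also moved the count higher in monosomes, to 784.

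**Figure D1:**
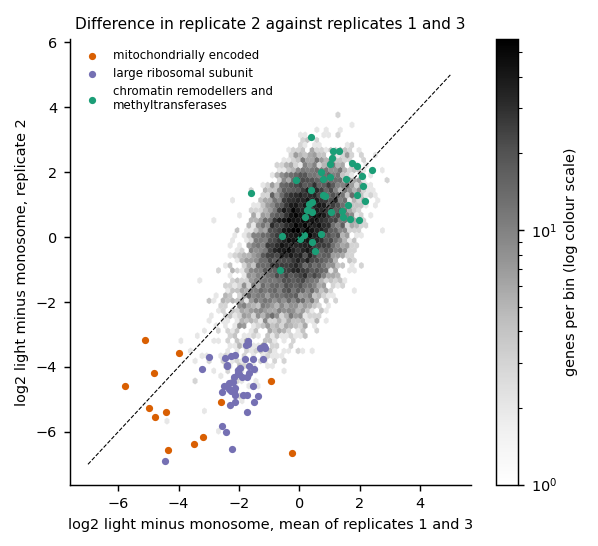
Each hexagon counts genes by the log2 difference light minus monosome, with the mean of replicates 1 and 3 on the horizontal axis and replicate 2 on the vertical axis; coloured points are members of 3 gene lists and the dashed line marks equal values. Large-subunit ribosomal protein genes lie below the line, with a median of -4.39 relative to the median gene in replicate 2 against -2.56 and -1.53 in replicates 1 and 3.

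Among the 33 gene lists, ribosomal protein mRNAs had the largest shares on the monosome side. All 47 large-subunit members tested were higher in monosomes, where 10.6% of all genes were, and their median stood at -2.83 relative to the median gene. Of the 33 small-subunit members 31 were higher in monosomes, with a median of -3.002, and 0 members of either subunit were higher in light polysomes, also at an unadjusted limma p under 0.05, in edgeR and in DESeq2. Ribosomal protein genes together took 38.5%, 54.1% and 33.9% of the reads of monosome replicates 1, 2 and 3, and 15.7%, 7.15% and 18.6% of the light polysome libraries. The remaining 2, RPS26 and FAU, differed by -1.86 ± 0.66 (adjusted p = 0.061) and -1.25 ± 0.50 (adjusted p = 0.093) in limma, and RPS26 passed with the replicate block (adjusted p = 0.0373). RPL3, which passed at 0.0402, did not with the block (adjusted p = 0.0502). Without light replicate 2 the adjusted p was 0.0834 for RPL3 and 0.0803 for RPL22.

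RPL41, which encodes the smallest protein of the large subunit, showed the widest difference of any nuclear gene. It measured 469903, 384998 and 343949 normalized counts in monosome replicates 1, 2 and 3, and 17076, 3208 and 20128 in light polysomes. The lowest monosome library was far above the highest light library, a difference of -5.26 ± 0.66 (SE; limma adjusted p = 2.35e-04), or 38.4-fold on the log2(count + 1) scale. RPS27, a small-subunit protein, measured 192508, 209544 and 141840 in monosomes and 16126, 3463 and 25892 in light polysomes, a difference of -3.98 ± 0.66 (limma adjusted p = 0.00131). In both genes light replicate 2 was the lowest library of its group, and without it the differences were -4.42 and -3.13.

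The other extremes of the large subunit were RPL21 and RPL37 at -3.68 and -3.64, and RPL3 and RPL22 lay nearer the typical gene, at -1.89 and -1.90. Among small-subunit genes RPS12 reached -4.02. Many of these genes have near-identical processed pseudogenes, and reads could be split between copies. Without light polysome replicate 2, 43 of 47 and 30 of 33 were still higher in monosomes. Leaving out replicate 1 of every fraction left 6 and 8, and the replicate block without light replicate 2 left 24 and 19.

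The 21 other TOP mRNAs tested followed in part. Of these 14 were higher in monosomes and 0 in light polysomes, with a median of -1.91. At an unadjusted limma p under 0.05 the counts were 16 and 0, in edgeR 14 and 0, and in DESeq2 16 and 0. Without light replicate 2 limma called 12 and 0, with a median of -1.82. TPT1, a growth-related protein of high abundance, measured 207918, 196348 and 92610.2 in monosomes and 11507, 5725 and 12154 in light polysomes, without overlap, a difference of -4.07 ± 0.58 (limma adjusted p = 4.95e-04). EEF1A1, the factor that delivers aminoacyl-tRNA to the ribosome, measured 568869, 849874 and 612536 against 111251, 51946 and 134687, a difference of -2.86 ± 0.68 (limma adjusted p = 0.0099). NOP53, a ribosome assembly factor, differed by -3.09. At the other end the libraries of NPM1, VIM and COX7C overlapped, with differences of -0.72, -0.51 and 0.19 and limma adjusted p of 0.456, 0.495 and 0.851. NPM1 is a nucleolar chaperone, VIM an intermediate filament protein and COX7C a cytochrome oxidase subunit.

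The annotated start sites are shown because the TOP motif is defined there. Each line gives 10 bases before and 15 bases from the RefSeq start (build GRCh38.p14), with a run of pyrimidines that opens with C at the start in capitals; RPL41, RPS27, TPT1 and EEF1A1 were high in monosomes, TENM1 and AKAP9 high in light polysomes.
RPL41, chr12:56116623-56116647, plus strand: cttcgcctttCTCTCggccttagcg
RPS27, chr1:153990752-153990776, plus strand: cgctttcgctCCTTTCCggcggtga
TPT1, chr13:45341169-45341193, minus strand: ctgagtcggcCTTTTCCgcccgctc
EEF1A1, chr6:73521018-73521042, minus strand: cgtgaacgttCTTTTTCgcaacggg
TENM1, chrX:125204298-125204322, minus strand: gaccagccttagagcgcggcggcgg
AKAP9, chr7:91940852-91940876, plus strand: gcctcgccgtgtgtttacgtggaga

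The 4 monosome-side genes open with runs of 5, 7, 7 and 7 pyrimidines, and TENM1 and AKAP9 do not start with C. A start was matched by symbol for 9893 of the genes tested. C followed by at least 4 further pyrimidines on the gene's own strand stood at 5.50% of these starts, and at 65.8% of large-subunit, 73.1% of small-subunit and 86.7% of other TOP genes. It stood at 11.5% of the genes higher in monosomes and 2.70% of those higher in light polysomes. Outside the 3 lists, 487 genes had such a start, of which 67 (13.8%) were higher in monosomes and 24 (4.93%) higher in light polysomes; of 9327 genes without one the shares were 9.49% and 9.27%. Without light replicate 2, 67 of the 487 were higher in monosomes and 39 in light polysomes, beside 1011 and 1047 of the 9327. A match describes the annotated start only, since cells can use others.

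**Figure D2:**
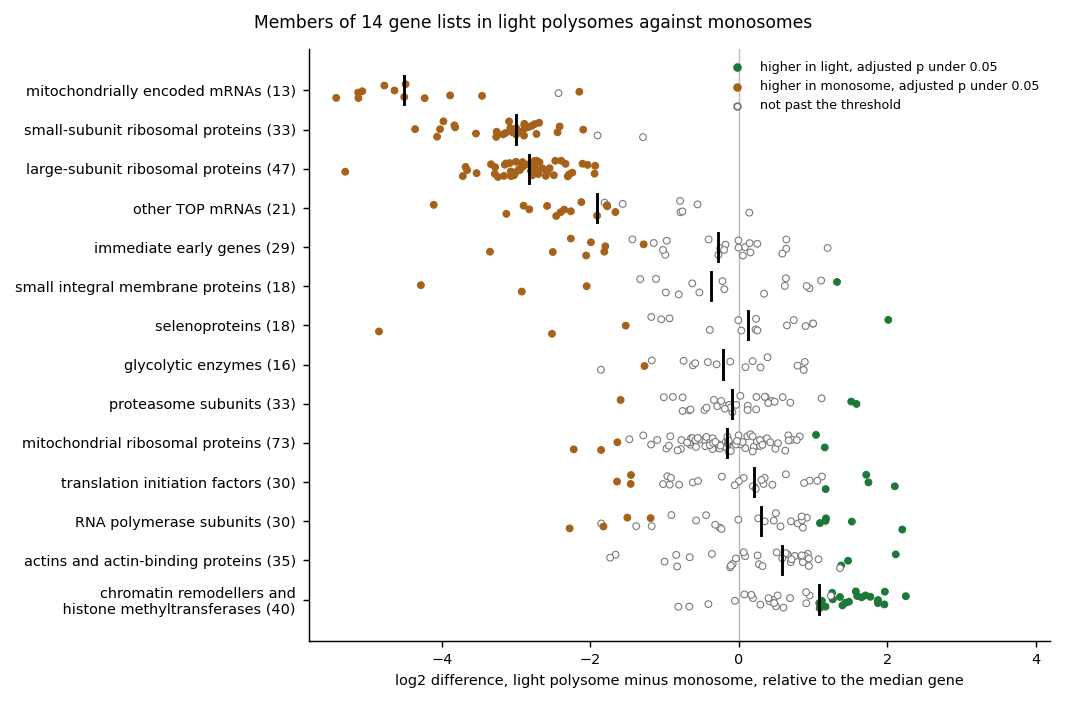
Members of 14 gene lists (number tested in brackets) by log2 difference light polysome minus monosome relative to the median gene; filled points passed limma's adjusted p of 0.05, open points did not, and black bars are list medians. The ribosomal protein, TOP and mitochondrially encoded lists lie on the monosome side, with medians from -1.91 to -4.51, and the chromatin list lies on the light polysome side, with a median of 1.09.

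Mitochondrially encoded mRNAs lay still further towards the monosome pool. Of the 13 tested, 12 were higher in monosomes and 0 in light polysomes, with a median of -4.51. At an unadjusted limma p under 0.05 the counts were 12 and 0, in edgeR 10 and 0, and in DESeq2 11 and 0. MT-CO2, a catalytic subunit of cytochrome oxidase, measured 2585470, 78343 and 1423770 in monosomes and 41764, 3257 and 29180.1 in light polysomes. No library overlapped, but replicate 2 was lowest in both fractions, and the difference was -5.38 ± 1.22 (limma adjusted p = 0.00769). MT-ND1, a complex I subunit, varied less, at 367665, 189804 and 371413 against 11355, 4100.1 and 15918, a difference of -5.03 ± 0.58 (limma adjusted p = 1.33e-04). The complex I, oxidase and ATP synthase subunits MT-ND4, MT-ATP6, MT-CO3, MT-ND2 and MT-ND4L lay between -5.09 and -4.45.

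The exception was MT-ND5, whose libraries overlapped: 94939.8, 56203 and 45287 in monosomes against 59808, 562 and 50313 in light polysomes, a difference of -2.39 ± 1.37 (limma adjusted p = 0.243). Here light replicates 1 and 3 were about as high as the monosome libraries and light replicate 2 was far below them. Mitochondrial genes took 26.0%, 3.87% and 19.5% of the reads of monosome replicates 1, 2 and 3, and 3.08%, 0.225% and 2.72% of the light polysome libraries. Without light replicate 2, 9 of 13 passed: MT-ND3 and MT-CYB then had limma adjusted p of 0.0994 and 0.104, with differences of -3.21 and -1.88 in place of -4.47 and -3.42. MT-ND6, the lone member on the opposite strand, was among those lost, at -0.98 (adjusted p = 0.0607) in place of -2.11. MT-ND4L and MT-ND4 overlap, as do MT-ATP8 and MT-ATP6, so their counts are not independent.

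Nuclear-encoded mitochondrial genes lay nearer the typical gene. Of 36 complex I subunits 2 were higher in light polysomes and 3 in monosomes, with a median of -0.20. The 39 subunits of complexes III, IV and ATP synthase counted 1 and 3, with a median of -0.41, the 73 mitochondrial ribosomal proteins 2 and 3 at -0.16, and the 30 import proteins 3 and 2 at -0.32. These shares lay at or under the background of 8.91% and 10.6%, apart from 10.0% of import proteins higher in light polysomes. Without light replicate 2, 1 import protein was higher in light polysomes and the import median was -0.04. That of complexes III, IV and ATP synthase was then -0.12, 1 complex I subunit was higher in light polysomes, and 6 mitochondrial ribosomal proteins were higher in monosomes.

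**Figure D3:**
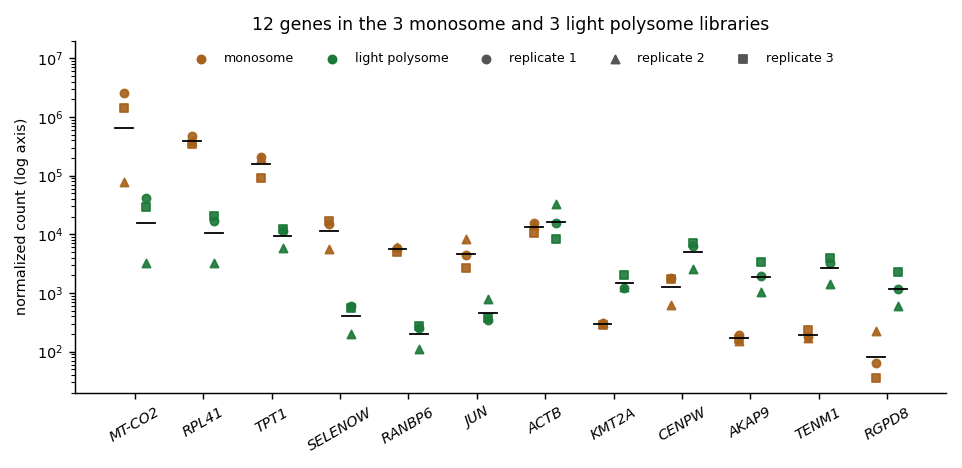
Normalized counts (log axis) of 12 genes in each monosome (brown) and light polysome (green) library, with the replicate shown by the symbol and the mean on the log2(count + 1) scale as a black bar. RPL41, TPT1, SELENOW, RANBP6 and JUN are lower in every light library than in any monosome library, TENM1, AKAP9 and RGPD8 are higher, and ACTB overlaps.

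Genes with a single exon in their principal transcript were a further monosome-side group, which was chosen after its values were seen. Other transcripts of such a gene can have more exons. By the principal GENCODE transcript 268 nuclear genes had a single exon; 99 of them, or 36.9%, were higher in monosomes and 3 higher in light polysomes, with a median of -0.94. Among the 11773 nuclear genes with more exons the counts were 1164 (9.89%) and 1071 (9.10%). RANBP6, an importin-related protein, measured 5945, 6108 and 5057 in monosomes and 252, 112 and 275 in light polysomes. The groups lay far apart, with little spread within either, a difference of -4.83 ± 0.38 (limma adjusted p = 1.07e-05).

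EXOC8, a subunit of the exocyst that tethers secretory vesicles, measured 4692, 3035 and 2853 against 197, 94.3 and 265, a difference of -4.33 ± 0.38 (limma adjusted p = 1.90e-05). KLHL9, a substrate adaptor of a CUL3 ubiquitin ligase, measured 5063, 6643 and 4046 against 279, 268 and 369.5, a difference of -4.09 ± 0.32 (limma adjusted p = 1.07e-05). Both groups of libraries were well separated in each gene. The transcription factors POU3F2, ZXDB and ZBTB43 differed by -3.81, -3.62 and -3.58, the mannosyltransferase PIGM by -3.55 and the ADP receptor P2RY1 by -3.54. Without light replicate 2 the group counted 100 and 12 and its median was -0.75.

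Within bins of coding length above 300 nt, single-exon genes had lower medians than other genes. Above 1200 and up to 2400 nt of coding sequence 54 of 92 single-exon genes (58.7%) were higher in monosomes and 0 in light polysomes, with a median of -1.73, against 499 of 4414 (11.3%) and -0.10 for genes of more exons. Above 600 and up to 1200 nt it was 33 of 108 (30.6%) with a median of -0.80, against 327 of 3321 (9.85%). Above 300 and up to 600 nt the share higher in monosomes was 5 of 52 (9.62%), beside 142 of 1225 (11.6%), while 1 single-exon gene was higher in light polysomes beside 155. The median there was -0.34 against 0.05, and 0.04 against 0.32 without light replicate 2. Over all genes the median was lowest at 1 exon, -1.01, and highest above 20 exons, 0.35, with -0.44 at 2, -0.16 at 3 to 5, 0.03 at 6 to 10 and 0.03 at 11 to 20. These medians were -0.83, 0.34, -0.24, 0.01, 0.02 and -0.08 in the same order without light replicate 2, so the middle groups had no steady order. Gene GC content went the other way: the median was 0.29 in the quintile of lowest GC and -0.31 in that of highest. Exon number, GC content and coding length vary together across genes and their parts were not separated further.

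**Figure D4:**
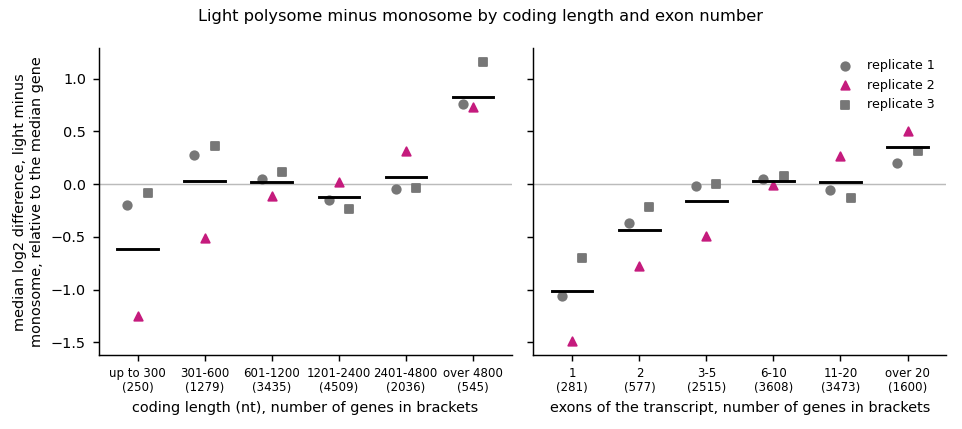
Median log2 difference light polysome minus monosome, relative to the median gene, by coding length (left) and exon number (right), with the number of genes in brackets; symbols are replicates 1, 2 and 3 (replicate 2 in pink) and black bars the value of the fit. Genes above 4800 nt lie at 0.83 and single-exon genes at -1.01, whereas genes of up to 300 nt differ between replicate 2 and the others.

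Genes with very long coding sequences were on the light polysome side. Of the 545 genes above 4800 nt, a bound added after the values were seen, 192 (35.2%) were higher in light polysomes and 8 in monosomes, with a median of 0.83. The replicates gave 0.76, 0.73 and 1.16, and without light replicate 2 the counts were 250 and 5. Above 2400 and up to 4800 nt 183 of 2036 (8.99%) were higher in light polysomes, close to the 8.91% of all genes. The shortest genes depended on light replicate 2: 43 of 250 genes of up to 300 nt (17.2%) were higher in monosomes and 11 (4.40%) in light polysomes, with a median of -0.62, but without that library the counts were 32 and 34 and the median 0.05. The replicate medians of these genes were -0.20, -1.25 and -0.08.

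TENM1, a teneurin of the cell surface, had the second largest difference towards light polysomes, after RGPD8. It measured 179, 171 and 229 normalized counts in monosomes and 3248, 1412 and 3982 in light polysomes, so that the groups were far apart. The difference was 3.78 ± 0.39 (limma adjusted p = 5.53e-05), or 13.7-fold. AKAP9, a scaffold at the Golgi and centrosome with 11721 nt of coding sequence, measured 192, 154 and 161 against 1946, 1021 and 3317, a difference of 3.47 ± 0.42 (limma adjusted p = 1.77e-04). Its groups did not overlap, and light replicate 2 was the lowest light library in both genes.

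BOD1L1, which protects stalled replication forks, ZNF292, a zinc-finger protein, and TNRC6B, a GW182 protein of microRNA silencing, differed by 2.97, 2.92 and 2.92. HIPK2, a nuclear kinase, and ONECUT2, a homeodomain factor, differed by 2.60 and 2.80. Shorter genes also stood among the 12 largest called differences among the 6030 genes of highest mean. ARF4, a small GTPase of the Golgi, measured 589, 564 and 496 against 2298, 6386 and 3114, a difference of 2.70 ± 0.40 (limma adjusted p = 6.20e-04), and TCEAL9 differed by 2.85. In ARF4 light replicate 2 was the highest library, unlike in TENM1 and AKAP9. RGPD8, RGPD6 and NBPF12, at 3.86, 2.64 and 3.15, belong to families of near-identical copies, and their reads could be split between members, so these values are uncertain.

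Chromatin remodellers and histone methyltransferases, most of them very large proteins, were the list with the most members on the light side. Of 40 tested 20 (50%) were higher in light polysomes and 0 in monosomes, with a median of 1.09; without light replicate 2 it was 23 and 0. At an unadjusted limma p under 0.05 the counts were 26 and 1, in edgeR 21 and 0, and in DESeq2 21 and 1. Under the scaling by library totals 37 were higher in light polysomes, as were 7245 of all 12059 genes. KMT2A, a histone H3 lysine 4 methyltransferase, measured 308, 300.9 and 279 in monosomes and 1209, 1257 and 2036 in light polysomes. The groups did not overlap, and the difference was 2.30 ± 0.32 (limma adjusted p = 4.55e-04). CHD9, a helicase remodeller, and SETD1B, another lysine 4 methyltransferase, both differed by 2.01. The lowest members were NSD2, SMARCC2 and SMARCA2, at -0.77, -0.62 and -0.37, with limma adjusted p of 0.0845, 0.45 and 0.448.

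Coding length moved with this list. All 20 called members were among its 29 genes above 4800 nt (69.0%, median 1.27), and 0 of its 11 shorter members were called, with a median of 0.42. Outside the list 172 of 516 genes above 4800 nt (33.3%) were higher in light polysomes, with a median of 0.79. The list was chosen with earlier results of these data known, so the difference between 69.0% and 33.3% is a description. Leaving out replicate 1 or replicate 3 of every fraction left 7 called members each.

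Some genes were higher in light polysomes than in either neighbouring pool. The count of genes past limma's threshold in both contrasts was 258 (2.14%); 18.3% of all genes were higher in light than heavy polysomes and 15.6% higher in heavy. Both contrasts use the same light libraries, so this count is only a description, and without light replicate 2 it was 668, of which 251 were among the 258. Among the 258, 81 (31.4%) had a coding sequence of up to 600 nt, against 12.7% of all genes, and 35 (13.6%) one above 4800 nt, against 4.52%. These lengths are not particular to the 258. Of the 1074 genes higher in light polysomes than monosomes, 17.9% were above 4800 nt. In the contrast with heavy polysomes, 234 of 250 genes of up to 300 nt were higher in light polysomes. So were 667 of 1279 above 300 and up to 600 nt.

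The 10 clearest of these by the smaller of the 2 differences were TENM1, ONECUT2, TMEM263, SELENOT, CENPW, SCML1, FAM174A, NKTR, VPS13A and GOLT1B. CENPW, a small centromere protein, measured 1805, 625 and 1709.95 in monosomes, 6417, 2591 and 7237 in light and 1312, 744 and 1233 in heavy polysomes. Light polysomes were highest in every replicate, by 1.99 ± 0.49 over monosomes and with heavy minus light at -2.21 (limma adjusted p = 0.0125 and 0.0074). SELENOT, a selenoprotein of the endoplasmic reticulum, measured 895, 495 and 980.1 in monosomes, 3496, 2084 and 4328 in light and 619.5, 501 and 779 in heavy polysomes. Its 2 differences were 2.06 and -2.34.

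VPS13A, a lipid transfer protein with 9522 nt of coding sequence, measured 287, 253 and 252 in monosomes, 1109, 385 and 1829 in light and 137, 277 and 258 in heavy polysomes. The profile was weak in light replicate 2, and so was that of NKTR, a cyclophilin-related protein, where light replicate 2 measured 703 beside 2831 and 3738. GOLT1B, a Golgi transport protein, and TMEM263 had their highest light value in replicate 2 instead. SCML1 and FAM174A differed from monosomes by 1.92 and 1.81, with heavy minus light at -1.72 and -1.96.

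**Figure D5:**
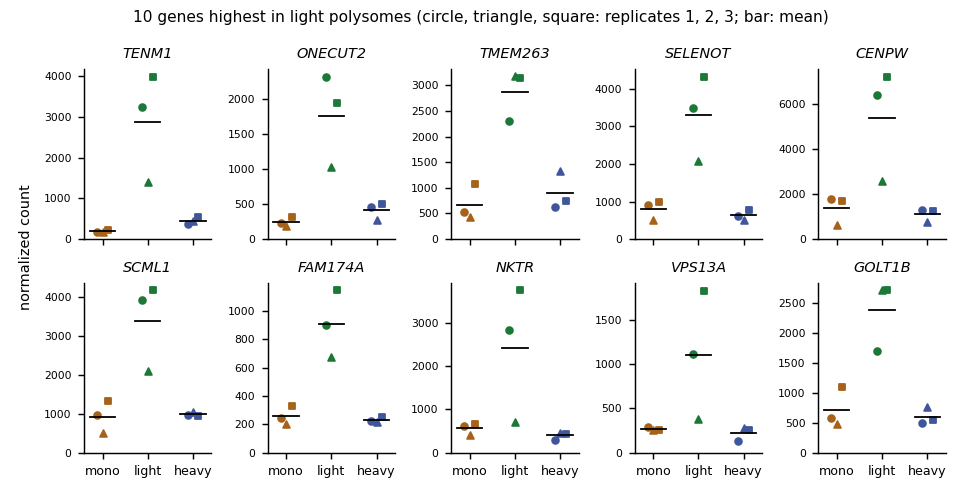
Normalized counts of the 10 genes in each monosome, light polysome and heavy polysome library (circle, triangle and square for replicates 1, 2 and 3; bar, mean), each panel with its own axis from 0. Means are highest in light polysomes in every panel, and light replicate 2 is the lowest light library in TENM1, ONECUT2, SELENOT, CENPW, SCML1, FAM174A, NKTR and VPS13A.

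Coding sequences of 3 short genes, picked by their values, are shown: RPL41 and SELENOW were among the 12 lowest called differences among the 6030 genes of highest mean and CENPW among the light polysome genes. Each runs from the start codon to the stop codon, both in capitals, from GENCODE release 29 on GRCh38; the genes lie at chr12:56116586-56117943, chr19:47778572-47784686 and chr6:126340174-126348875, all on the plus strand. The further capitals in SELENOW mark the in-frame TGA at codon 13, which is read as selenocysteine.
RPL41: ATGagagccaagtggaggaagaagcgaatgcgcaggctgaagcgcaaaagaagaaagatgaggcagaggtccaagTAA
SELENOW: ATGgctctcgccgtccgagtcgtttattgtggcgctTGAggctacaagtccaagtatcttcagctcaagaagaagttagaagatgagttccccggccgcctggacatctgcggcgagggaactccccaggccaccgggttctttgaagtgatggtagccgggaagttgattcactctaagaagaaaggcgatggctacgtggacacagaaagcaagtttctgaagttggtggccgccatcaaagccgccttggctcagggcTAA
CENPW: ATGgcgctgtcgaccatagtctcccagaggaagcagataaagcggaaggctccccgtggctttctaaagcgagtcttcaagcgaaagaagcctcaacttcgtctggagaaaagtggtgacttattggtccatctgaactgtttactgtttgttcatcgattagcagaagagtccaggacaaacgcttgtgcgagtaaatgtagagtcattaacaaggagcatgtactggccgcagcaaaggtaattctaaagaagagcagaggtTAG
RPL41 has 25 codons before its stop, SELENOW 87 and CENPW 88. SELENOW and CENPW, nearly equal in coding length, lay on opposite sides, at -4.81 and 1.99. Both were picked by these values, and the part of coding length was not tested.

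Selenoproteins were split. SELENOW measured 15117, 5679 and 17169 in monosomes and 595, 203 and 554 in light polysomes, far apart, with a difference of -4.81 ± 0.50 (limma adjusted p = 6.51e-05). SELENOH and SELENOO were also higher in monosomes, at -2.47 and -1.48, and SELENOT higher in light polysomes. The other 14 of 18 did not pass, among them the thioredoxin reductase TXNRD1 at 1.05 (limma adjusted p = 0.0638) and SELENOP at 1.04 (adjusted p = 0.108). The list median was 0.13. Without light replicate 2, 2 selenoproteins were higher in light polysomes and 4 in monosomes, and the median was 0.17.

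Small integral membrane proteins, named for their size, had the same counts. Of 18 tested 1 (5.56%) was higher in light polysomes and 3 (16.7%) in monosomes, beside 8.91% and 10.6% of all genes. SMIM27 measured 4056, 2023 and 6417 against 256, 102 and 293, a difference of -4.24 ± 0.52 (limma adjusted p = 1.91e-04). SMIM29 and SMIM11 differed by -2.88 and -2.01 and SMIM7 by 1.37. The list median went from -0.38 to 0.32 without light replicate 2, with 4 and 3 called. With the replicate block SMIM10, at 1.15, also passed (adjusted p = 0.0261, in place of 0.0687).

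Immediate early genes, which respond to stimuli without new protein synthesis and often encode unstable mRNAs, lay towards monosomes in part. Of 29 tested 8 (27.6%) were higher in monosomes and 0 in light polysomes, beside 10.6% and 8.91% of all genes. The median was -0.28, and without light replicate 2 the counts were 11 and 1. The list had a median of 3 exons. Among all genes of 2 exons 24.1% were higher in monosomes, and among those of 3 to 5 exons 15.6%. The part of exon number in this list was not tested. At an unadjusted limma p under 0.05 the counts were 12 and 1, in edgeR 8 and 0, and in DESeq2 10 and 0. Under the scaling by library totals 2 were higher in monosomes and 13 in light polysomes, beside 355 and 7245 of all 12059 genes. JUN, an AP-1 subunit with a single exon, measured 4450.4, 8190.1 and 2658 in monosomes, 341, 785 and 369.5 in light and 1808, 3372 and 2358 in heavy polysomes. It was lowest in light polysomes in every replicate, with light minus monosome at -3.31 ± 0.46 and heavy minus light at 2.39 (limma adjusted p = 4.56e-04 and 0.00643).

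MCL1, a BCL2-family survival protein, measured 2706, 3893 and 2333 in monosomes, 561, 777 and 555 in light and 2175, 1533 and 1472 in heavy polysomes. Light minus monosome was -2.22 and heavy minus light 1.45. EGR1, a zinc-finger factor, differed by -2.46 (limma adjusted p = 0.0174) without such a return in heavy polysomes, where heavy minus light was -0.54 (adjusted p = 0.538). At the other end ATF3 measured 246, 1334 and 452 against 445, 5018 and 881. Replicate 2 was high in both of its fractions, and ATF3 passed with the replicate block (adjusted p = 0.0229, in place of 0.314).

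Stress-response mRNAs with upstream reading frames included 3 of 16 (18.8%) that were higher in monosomes and 1 (6.25%) higher in light polysomes. Over all genes the shares were 10.6% and 8.91%. The list median was -0.06. Without light replicate 2 the counts were 3 and 2 and the median 0.05. PPP1R15B, the constitutive adaptor that reverses eIF2α phosphorylation, measured 11042, 11327 and 9286 in monosomes and 1182, 1363 and 1687 in light polysomes. The groups were far apart, with a difference of -2.91 ± 0.35 (limma adjusted p = 1.70e-04). DDIT3, the factor CHOP, and SAT1, a polyamine acetyltransferase, differed by -2.42 and -1.79. AZIN1, the antizyme inhibitor, was higher in light polysomes, at 1.05. ATF4 itself measured 37466, 30079 and 40151 against 17103, 6869.5 and 22141, without overlap, but its difference of -1.37 ± 0.58 did not pass (limma adjusted p = 0.113).

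Of 30 translation initiation factors 4 (13.3%) were higher in light polysomes and 3 (10.0%) in monosomes. Both shares lay near the 8.91% and 10.6% of all genes, and the median was 0.20. The counts without light replicate 2 were 5 and 4 and the median -0.03. EIF4G2, a scaffold of non-canonical initiation, measured 3919.98, 2004 and 4402 against 18445, 11229 and 14532, a difference of 2.15 ± 0.43 (limma adjusted p = 0.00401). EIF5A, the hypusine-bearing factor, and EIF1AX, a scanning factor, were also higher, at 1.79 and 1.76. The libraries of these 3 genes did not overlap. EIF2A, EIF3M and EIF3G were higher in monosomes, at -1.60, -1.41 and -1.41; with the replicate block the last 2 had adjusted p of 0.0532 and 0.0534.

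Of 30 RNA polymerase subunits 5 (16.7%) were higher in light polysomes and 4 (13.3%) in monosomes, beside 8.91% and 10.6% of all genes. Their median was 0.31. Without light replicate 2 the counts were 7 and 4. POLR3GL, a polymerase III subunit, measured 356, 287 and 323 against 1577, 1566 and 1441, a difference of 2.25 ± 0.30 (limma adjusted p = 3.82e-04). POLR1F and POLR3K, of polymerases I and III, were also higher, at 1.57 and 1.22. The small polymerase II subunits POLR2J and POLR2I were higher in monosomes, at -2.24 and -1.78. POLR2I did not pass without light replicate 2 (limma adjusted p = 0.0852) or in edgeR (adjusted p = 0.0802). POLR2K, shared by all 3 polymerases, lay at -1.81 (limma adjusted p = 0.0659, and 0.0109 with the block).

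Actins and their binding proteins had the second highest list median, 0.59. Only 3 of 35 (8.57%) were higher in light polysomes and 0 in monosomes, beside 8.91% and 10.6% of all genes. At an unadjusted limma p under 0.05 the counts were 12 and 3, in edgeR 4 and 0, and in DESeq2 5 and 1. Without light replicate 2 limma called 5 and 0, with a median of 0.48. ARPC5, an Arp2/3 subunit, measured 1302, 493 and 912 against 3728, 3578 and 3932, a difference of 2.16 ± 0.40 (limma adjusted p = 0.00254), and MYL12A and TPM4, a myosin light chain and a tropomyosin, differed by 1.52 and 1.42. The thymosins TMSB10 and TMSB4X, which bind actin monomers, lay at -1.69 and -1.62 and passed with the replicate block (adjusted p = 0.0322 and 0.00784, in place of 0.137 and 0.0509). ACTB overlapped, at 15432, 14267 and 10502 in monosomes and 15819, 32261 and 8415 in light polysomes, a difference of 0.30 ± 0.66 (limma adjusted p = 0.792). GAPDH, the glycolytic enzyme, measured 38296, 104069 and 16259.9 against 13461, 8835 and 12521; every light library was below every monosome library, but the difference of -1.81 ± 0.64 did not pass (limma adjusted p = 0.0604).

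Protein quality control lists counted few called members, where 8.91% of all genes were higher in light polysomes and 10.6% in monosomes. Of 33 proteasome subunits 2 were higher in light polysomes, PSMB2 at 1.63 and PSMD7 at 1.56, and 1 in monosomes, PSMB4 at -1.55, with a median of -0.09. The counts without light replicate 2 were 2 and 3 and the median -0.48. Cytosolic heat shock proteins counted 2 and 3 of 24. HSPB1, a small heat shock protein, measured 10266, 6807 and 8532 against 2016, 702 and 1418, a difference of -2.74 ± 0.45 (limma adjusted p = 0.00119). The near-identical intronless pair HSPA1A and HSPA1B, whose reads could be split, differed by -3.73 and -1.97; HSPA1A overlapped, with 11.3 in monosome replicate 3, and lost its call without light replicate 2 (adjusted p = 0.0654). Of 9 prefoldin subunits PFDN5 and UXT were higher in monosomes, at -1.97 and -1.62, and neither passed without light replicate 2 (adjusted p = 0.0553 and 0.103). Of 8 TRiC subunits 0 were called in either direction by limma, edgeR or DESeq2, or at an unadjusted limma p under 0.05. Their median was 0.08, and -0.49 without light replicate 2.

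The remaining lists counted few called members, beside the background of 8.91% and 10.6%. Higher in light polysomes and higher in monosomes were 0 and 1 of 16 glycolytic enzymes (median -0.21), 0 and 1 of 20 cytosolic tRNA synthetases (median -0.24), 0 and 1 of 28 ER chaperones and folding enzymes (median 0.27), 2 and 2 of 32 genes of the translocon, signal recognition particle and oligosaccharyltransferase (median 0.14), 1 and 0 of 17 V-ATPase subunits (median 0.18), and 1 and 0 of 27 matrix proteins (median 0.36). The same counts were 2 and 0 of 23 cholesterol synthesis enzymes (median 0.0046), 1 and 1 of 44 core spliceosome genes (median -0.12), 5 and 2 of 43 replication genes (median -0.10), 3 and 1 of 35 cyclins, CDKs and mitotic regulators (median 0.10), 0 and 1 of 14 tubulins (median -0.18), and 1 and 2 of 23 ATF4 targets (median 0.18). Without light polysome replicate 2 the counts and medians of the first group became 0 and 2 at -0.52 for glycolytic enzymes, 0 and 2 at -0.36 for cytosolic tRNA synthetases, 0 and 1 at -0.15 for ER chaperones and folding enzymes, 2 and 2 at 0.06 for translocon genes, 2 and 1 at 0.32 for V-ATPase subunits, and 2 and 0 at 0.24 for matrix proteins, and those of the second 1 and 1 at -0.29 for cholesterol synthesis enzymes, 2 and 0 at -0.16 for core spliceosome genes, 5 and 3 at -0.13 for replication genes, 1 and 2 at 0.16 for cyclins, CDKs and mitotic regulators, 0 and 0 at -0.23 for tubulins, and 1 and 1 at -0.05 for ATF4 targets. Medians of ER chaperones, cholesterol synthesis enzymes and ATF4 targets thus changed sign. Where limma called 0 members higher in light polysomes, the count at an unadjusted p under 0.05 was 0 for glycolytic enzymes, tRNA synthetases and tubulins and 4 for ER chaperones, with 0, 0, 0 and 0 in edgeR and 0, 0, 0 and 1 in DESeq2. Where it called 0 higher in monosomes, the unadjusted count was 0 for V-ATPase subunits and 1 each for matrix proteins and cholesterol synthesis enzymes, with 0 in edgeR for all 3 and 1 in DESeq2 for cholesterol synthesis. Among replication genes PCNA, the sliding clamp, was higher in light polysomes at 1.43 (limma adjusted p = 0.0424) and lost that call without light replicate 2 (adjusted p = 0.0793). Of 16 replication-dependent histone genes 0 were called in either direction by limma or edgeR, with a median of -0.61, or -0.13 without light replicate 2; DESeq2 called 1 higher in monosomes, where 2 lay at an unadjusted limma p under 0.05; these had a median of 41.8 normalized counts, so the depth behind them was low.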

How the data were processed

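Polysome fractions of vehicle-treated HEK293 cells were sequenced in 9 libraries. The submitters' processing notes name featureCounts and GRCh38. For the aligner, strandedness and annotation, nothing is stated in the labels. The signal in the authors' deposited table is a gene's count divided by 1 size factor per library, since dividing by the smallest step gave whole reads for 100% of values (tolerance 0.01 reads) and the factors lay within 0.997% of median-of-ratios factors. The deposited percent and log2 columns were not used. This scaling makes pools comparable per typical gene and removes differences in how much RNA each held. ERCC spike-ins, which the labels name, are not used here.

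Genes with a symbol and a mean of at least 20 were fitted in limma 3.58.1 (trend; R 4.3.3) on log2(normalized count + 1), with fraction as the only term over 9 libraries. Two-sided p-values were Benjamini-Hochberg adjusted over all 12059 genes, with a threshold of 0.05. They set a difference against the spread between replicates, estimated over the 9 libraries. Without a replicate term, that spread includes any replicate effect. Lists are described by counts and medians relative to the median gene, with no test of a list. The members and the 33 lists were chosen with earlier results of these data known. Named genes were the 12 highest and 12 lowest differences among called genes of the upper 6030 by mean with 1 sign in 3 of 3 replicates, the 10 clearest light-polysome maxima, the 3 highest and 3 lowest of each list of at least 5, and ACTB, GAPDH, EEF1A1 and ATF4; not all are printed, and the single-exon genes were added later. Coding length and exon number came from the principal transcript in GENCODE release 29 for 12054 of the genes.

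The labels give each replicate number as a batch number, and the fit with a replicate block takes these numbers to pair fractions. Deviations of same-numbered monosome and light libraries correlated at 0.163, 0.133 and -0.018 across genes. Those of differently numbered monosome and light libraries ran from -0.224 to 0.143, so these values do not settle the pairing. Alternatives were this block, only 6 libraries, pseudocounts of 0.5 and 5, other filters and scalings, edgeR 4.0.16 and DESeq2 1.42.0 on the recovered reads, and leaving out libraries. Some single-gene results are not reported here.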

Additional observations from a re-analysis of the deposited data

How the results depend on the processing

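With the replicate block 1063 genes were higher in light polysomes and 1325 in monosomes, and it changed the calls named beside the results. It also moved counts higher in light polysomes from 3 to 1 for cyclins, 2 to 1 for complex I subunits and for mitochondrial ribosomal proteins, 1 to 3 for small integral membrane proteins and 1 to 2 for ATF4 targets, and counts higher in monosomes from 1 to 4 for spliceosome genes and 1 to 0 for ER chaperones. Of 41 medians (33 lists and 8 groups by coding length or exon number), 32 stayed within 1 SD of the 3 replicate medians under all 20 alternatives. Replicate 2 enters that SD, so the bound is wide where replicate 2 differed, and this count does not show that medians were stable without it. Small integral membrane proteins went from -0.38 to 0.32 without light replicate 2, within an SD of 0.70. ER chaperones went from 0.27 to -0.15, within an SD of 0.55. The medians are also relative to the median gene, so a change of scaling moves them little. Scaling by library totals gave 7245 and 355 called genes and 961 above both neighbours. A fit of only the 6 monosome and light polysome libraries kept 731 of the 1074 calls higher in light polysomes. It kept 1000 of the 1276 calls higher in monosomes, so part of the calls rested on the heavy polysome libraries in the estimate of spread. The block without light polysome replicate 2, chosen after seeing the data, gave 462 above both neighbours and medians of -0.25 for TRiC, -0.024 for cyclins and -0.64 for immediate early genes. The translocon list moved to 0.25 in DESeq2 and 0.25 in edgeR. Leaving out libraries or replicates gave 158 to 2182 genes higher in light polysomes, 434 to 2265 higher in monosomes and 0 to 1054 above both neighbours. Under the same settings medians ran from -0.028 to 0.26 for initiation factors, -5.39 to -3.51 for mitochondrially encoded mRNAs, -0.49 to 0.32 for TRiC and 0.056 to 0.30 for the translocon. They ran from 0.80 to 1.18 for the chromatin list, -0.0014 to 0.18 for cyclins, -0.17 to 0.18 for stress-response mRNAs, -0.72 to -0.15 for immediate early genes and -0.93 to 0.049 for coding sequences of up to 300 nt. The cause was not tested. With 3 libraries a fraction and replicate 2 unlike the others, small differences could not be resolved.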
